A study of Mus musculus with 4 samples.

Results

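The stroma described here is a set of 1341 uterine cells of the newborn mouse, 629 in the first and 712 in the second uterus library, chosen by a count of marker genes that include Lum, Tcf21 and Penk. A barcode was a member when at least 4 of the 7 genes Lum, Tcf21, Penk, Pdlim3, Alcam, Pdgfrl and Mme had a UMI (unique molecular identifier, 1 per captured RNA molecule) and fewer than 4 of Robo2, Tex15, Plac8, Col6a4, Cnr1, Rxfp1 and Prdm1 had one. Epcam, Pecam1 and Upk3b, which mark epithelium, blood endothelium and mesothelium, had to be at 0 UMIs. Members were 1341 of 8566 uterine cells that passed the filters on genes and mitochondrial UMIs, and the whole series held 21326 such cells. The 14 genes counted by the rule were chosen from these uterine cells, so their levels below are a description and carry no test.

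The study profiled the oviduct and the uterus of wild-type CD1 (ICR) mice at postnatal day 3 by droplet single-cell RNA sequencing, with 2 libraries per organ. All 4 libraries came from untreated neonates. Each library pooled 3 or 4 neonates, and the same animals gave oviduct and uterus. The labels do not say which pool gave which library number. Library counts therefore stand for pools, not for single animals.

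The uterus and the oviduct form from the Müllerian duct, an epithelial tube in a coat of mesenchyme. Shortly after birth that mesenchyme is being sorted into endometrial stroma next to the epithelium and smooth muscle farther out. Lum encodes lumican, a small leucine-rich proteoglycan that binds collagen fibrils, and Tcf21 encodes a basic helix-loop-helix transcription factor of visceral mesenchyme. Penk encodes the precursor of the enkephalin peptides, and Mme encodes neprilysin, a surface peptidase that cleaves enkephalins among other peptides. Alcam is an adhesion molecule, Pdlim3 an actin-associated PDZ-LIM protein and Pdgfrl a protein related to the Pdgf receptors. In mm10 (GRCm38) Lum lies at chr10:97565128-97572703 on the plus strand, Tcf21 at chr10:22817281-22820174 on the minus strand and Penk at chr4:4133531-4138819 on the minus strand.

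An E-box was searched for because Tcf21 belongs to a protein family that binds E-boxes. Promoter sequence is shown for 2 genes that hold it, the rule gene Pdlim3 and Ogn, which heads the list of genes higher in the members. The 250 bases before the annotated start are given on the gene's plus strand, with the E-box CAGCTG in capitals; it reads the same on both strands.
Pdlim3: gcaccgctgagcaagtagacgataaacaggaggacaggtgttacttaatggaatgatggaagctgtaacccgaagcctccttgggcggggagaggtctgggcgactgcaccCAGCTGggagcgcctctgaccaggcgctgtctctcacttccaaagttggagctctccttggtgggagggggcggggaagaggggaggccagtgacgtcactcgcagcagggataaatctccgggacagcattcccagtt
Ogn: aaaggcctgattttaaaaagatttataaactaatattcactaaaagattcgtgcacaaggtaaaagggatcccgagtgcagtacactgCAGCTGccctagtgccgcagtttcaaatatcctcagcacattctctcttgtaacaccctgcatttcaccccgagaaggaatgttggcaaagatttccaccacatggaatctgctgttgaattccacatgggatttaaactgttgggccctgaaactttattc
The Pdlim3 stretch is chr8:45885237-45885486 with the motif at -139, and the Ogn stretch is chr13:49607765-49608014 with the motif at -162 (RefSeq promoters, GRCm38.p6). CAGCTG was present in 12.77% of all 27025 promoters of that table, 3450 in number. Of the 7 rule markers 4 have an entry, and 1, Pdlim3, holds the motif, while Mme, Alcam and Tcf21 itself do not. Of the 12 genes with the largest ratios in the members 4 have an entry, and 1, Ogn, holds the motif. Of the 12 with the lowest ratios 9 have an entry, and 2 hold it, 22.22% against 25% of the higher genes. A match of these letters is a description of the sequence and not evidence of binding.

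Members were deeply read, with a median of 13977 UMIs per cell in uterus replicate 1 and 15068.5 in replicate 2. Levels are given as counts per 1000000 UMIs (CPM) of the sum over all cells of a kind in a library, with both libraries in order of replicate. The kept cells of the 4 libraries numbered 4058 and 4508 in the uterus and 6920 and 5840 in the oviduct, after 28.7% to 29.0% of the called uterine barcodes and 11.4% to 13.8% of the oviduct barcodes had been removed. Any pair of libraries shared 6 to 10 cell barcodes.

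Checked against marker lists, the members carried the general markers of stroma, and a large part of them carried smooth muscle markers as well. At least 4 of 7 general stroma markers (Col1a1, Col1a2, Col3a1, Dcn, Pdgfra, Vim, Twist1) were detected in 627 of 629 and in 712 of 712 members. At least 4 of 7 smooth muscle markers (Myh11, Actg2, Cnn1, Des, Tagln, Synpo2, Lmod1) were detected in 253 and 286 members, which is 40.2% of each library. In the uterine cells of the Robo2 rule described below that share was 17.7% and 22.3%. The summed level of the 7 muscle markers was 2251 and 2236 CPM in members and 646 and 650.0 CPM in Robo2-rule cells, and none of the 7 was at 0. All 7 pericyte markers were present at a summed 114 and 111 CPM in members and 75.7 and 77.9 CPM in Robo2-rule cells. At least 4 pericyte markers were detected in 13 and 20 members. Blood endothelium reached that number in 1 and 2 members, epithelium in 0 and 1, mesothelium in none of either library and myeloid cells in 1 and 2. The lists of endothelium, epithelium and mesothelium hold Pecam1, Epcam and Upk3b, which the rule sets to 0, so that a member could carry at most 6 of their 7 genes. Sox10, Foxd3 and Cdh19 of Schwann cells and Slc4a1 of red cells were at 0 UMIs in all members. The haemoglobin and other red cell genes summed to 659 CPM in the members of uterus replicate 1 and 119 CPM in those of replicate 2, and their part in the results was not tested. RNA free in the droplets could account for at most 2.22% and 1.80% of the members' UMIs.

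The 7 genes of the rule were detected in unequal shares of the members. Tcf21 had a UMI in 98.4% and 97.8% of members and Alcam in 92.7% and 90.3%. Lum itself was detected in 73.8% and 76.7% and Penk in 64.4% and 67.1%, and Pdlim3 in 46.7% and 45.6%. In blood endothelium of the same libraries, with a median of 14585 and 16315 UMIs per cell, Lum had a UMI in 1.25% and 4.62% of cells and Tcf21 in 3.75% and 7.51%. Other mesenchymal cells of the uterus carried these genes more often. Smooth muscle and endothelial cells were those with at least 4 of their own 7 markers and fewer than 4 Lum and 4 Robo2 genes. That limit holds down the shares of the rule genes in them. Tcf21 had a UMI in 80.4% and 82.5% of smooth muscle cells and in 59.7% and 64.8% of the Robo2-rule cells described below. Penk was detected in 25.6% and 29.2% of smooth muscle cells and in 41.9% and 42.4% of Robo2-rule cells, and Lum in 13.2% and 16.4% and in 4.15% and 6.63%. After thinning every cell to 5000 UMIs, Lum was detected in 57.3% and 59.3% of members and in 0.758% and 2.04% of endothelial cells. In members these shares differed by less than 3 percentage points between the libraries, and the low endothelial shares were higher in the second library.

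In level, Lum stood at 388 and 373 CPM in members, Tcf21 at 504 and 498 CPM and Penk at 163 and 140.2 CPM. Alcam was at 521 and 449 CPM, Mme at 144 and 127 CPM, Pdlim3 at 111 and 116 CPM and Pdgfrl at 91.3 and 104 CPM. The libraries lay close together for each of the 7 genes. Of the genes that exclude a cell, Plac8 was still at 43.3 and 71.5 CPM and Col6a4 at 35.3 and 30.9 CPM, while Cnr1 was at 2.85 and 2.38 CPM.

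The number of markers per cell was graded, with no gap at the limit of the rule. Just inside it, with 4 of the 7 markers, lay 212 and 230 members, and 91 and 103 members had all 7. Just outside, with 3 markers and otherwise within the rule, lay 264 and 302 cells. Lum was at 65.4 and 64.1 CPM in those outside cells, 128 and 156 CPM in members of 4 markers and 813 and 583 CPM in members of 7. The same order held for Ogn and Col14a1, which the rule did not count. Ogn, encoding the proteoglycan osteoglycin, went from 26.0 and 22.0 CPM outside to 64.0 and 50.4 CPM at 4 markers and 182 and 202 CPM at 7 markers. Col14a1, a fibril-associated collagen, went from 11.9 and 12.8 to 30.4 and 26.4 and 147 and 98.7 CPM. The transcription factor gene Foxl2 ran the other way, from 22.1 and 21.0 CPM outside to 15.4 and 11.8 and 0.674 and 1.01 CPM. Ogn, Col14a1 and Foxl2 were chosen for their difference between members and the Robo2-rule cells described below. Their order here follows in part from that choice. Muscle genes did not move as one. Myh11 was at 126 and 94.1 CPM outside and 28.3 and 53.1 CPM at 7 markers, and Acta2 at 2696 and 2628 and 1677 and 2272 CPM. Actg2 was at 5.38 and 5.01 CPM outside and 11.5 and 49.1 CPM at 7 markers. Median UMIs per cell moved along the same order, from 12358 and 13009.5 outside to 15107 and 17330 at 7 markers, and their part in it was not tested.

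The natural counterpart in the uterus is the stroma that meets the mirrored rule, at least 4 of the Robo2 markers and fewer than 4 of the Lum markers, with 1109 and 1026 cells and a median of 15383 and 17000.5 UMIs. At least 4 markers of both sets were carried by 183 and 245 cells, which belong to neither kind; 154 and 192 of them had no UMI of Epcam, Pecam1 or Upk3b. A gene was counted as different when the CPM + 1 of the 2 kinds of cells differed at least 2-fold in the same direction in both libraries. The rule was made on this contrast, so the counts describe it and no test was made. Of 10085 genes that averaged 5 CPM or more across the 4 uterine sums, 656 (6.5%) differed, 508 of them (5.04%) higher and 148 (1.47%) lower in members. The median log2 ratio of all genes compared was 0.055.

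Among the extracellular matrix genes, the leucine-rich proteoglycans were higher in members. Apart from Lum, 5 of 6 compared members of that family were past 2-fold and none was lower, with a median log2 ratio of 2.33. Ogn was at 105 and 105 CPM in members and 1.71 and 1.80 CPM in Robo2-rule cells, with log2 ratios of 5.29 and 5.24. It headed the named genes, rule genes left out, by the smaller of the 2 libraries' ratios. Dcn, the most familiar fibroblast proteoglycan decorin, was at 1633 and 1614 CPM in members against 222 and 242 CPM. Aspn, asporin, was at 16.2 and 9.98 against 0.569 and 0.619 CPM. The members' values did not overlap those of Robo2-rule cells for any of the 3 genes, which largely follows from being past 2-fold in both libraries. Uterine smooth muscle held intermediate levels of Dcn (801 and 759.6 CPM), and pericytes held more Aspn (61.7 and 59.5 CPM) than the members did.

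Collagens were split between the 2 kinds of stroma. Outside the rule genes, 9 of 25 compared collagen genes were higher and 3 lower in members. The fibril-associated collagens led: Col14a1 was at 70.9 and 55.9 CPM in members and 1.02 and 0.844 CPM in Robo2-rule cells, and Col12a1 was at 139.8 and 138 against 7.57 and 7.31 CPM. The main fibrillar collagen Col1a1 was at 2230.0 and 1982 against 686 and 661 CPM. The 3 lower ones were Col6a6, Col13a1 and Col18a1. Col18a1, a basement membrane collagen, was at 12.7 and 9.62 CPM in members and 48.4 and 39.7 CPM in Robo2-rule cells.

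Elastic fibre genes were higher in members or within 2-fold, 9 of 19 against none lower, with a median log2 ratio of 1.01. Mfap5, a microfibril protein, was at 173 and 239.7 against 13.3 and 16.9 CPM, and Ltbp2, which sits on microfibrils, was at 36.2 and 29.6 against 0.683 and 0.619 CPM. The crosslinking enzyme gene Lox had log2 ratios of 3.6 and 3.61 and elastin itself (Eln) 1.94 and 2.0. All 4 genes were past 2-fold in both libraries, so that they were higher in members in each library is no separate result.

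Of 36 transcription factor genes outside the rule, 12 were higher and 5 lower in members. Gata6, a zinc-finger factor of endoderm and mesoderm, was at 72.5 and 68.8 CPM in members and 1.14 and 0.788 CPM in Robo2-rule cells. Zfpm2 encodes a cofactor that binds Gata proteins, and it was at 48.9 and 48.8 against 0.683 and 0.506 CPM. Tbx2 was at 45.9 and 41.4 against 1.48 and 1.35 CPM. Gata6 was detected in 34.0% and 35.4% of members and in 8.12% and 8.67% of endothelial cells. Meis2, a Hox cofactor, was abundant in both kinds, at 815 and 771 against 338 and 337 CPM. The 5 lower genes were Hand2, Twist2, Foxl2, Lef1 and Tcf4. Foxl2, a forkhead factor of ovary and uterine stroma, was at 6.03 and 5.92 CPM in members and 71.4 and 69.5 CPM in Robo2-rule cells. Hand2, a factor of endometrial stroma, was at 123 and 130.4 against 271 and 268 CPM. Wt1 and Emx2, both needed for the early genital tract, were alike in level, Wt1 at 186 and 156 against 177 and 162 CPM and Emx2 at 109.7 and 84.8 against 88.2 and 81.3 CPM.

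Signalling genes differed in both directions. In the Wnt pathway list 7 of 30 compared genes were higher and 8 lower, with a median log2 ratio of -0.08. Rspo3, a secreted enhancer of Wnt signals, was at 197 and 199 CPM in members and 9.91 and 9.84 CPM in Robo2-rule cells. Sfrp1, a secreted Wnt inhibitor, was at 344 and 299 against 23.9 and 18.8 CPM. Both were among the genes past 2-fold higher in members, though one enhances and the other inhibits Wnt signals. Lower in members were the ligand Wnt16, at 1.87 and 0.265 against 23.0 and 21.6 CPM, and Lef1, a nuclear effector and common target of the pathway, at 7.57 and 7.15 against 45.9 and 37.8 CPM. The ligands Wnt4 and Wnt5a were within 2-fold, Wnt5a at 270.2 and 231 against 205 and 187 CPM.

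In the BMP and TGF-beta list 7 of 23 genes were higher and 3 lower. The ligand Gdf10 was at 160.3 and 161 CPM in members and 33.4 and 34.2 CPM in Robo2-rule cells, and the receptor Bmpr1b at 12.2 and 9.71 against 0.626 and 0.113 CPM. The ligand Bmp7 was lower, at 5.60 and 2.91 against 25.4 and 23.0 CPM, as was the BMP antagonist Nog, at 2.63 and 3.09 against 12.1 and 12.7 CPM. Of 7 hedgehog genes the 3 co-receptors Boc, Cdon and Gas1 were past 2-fold, Boc at 29.5 and 23.7 against 3.42 and 2.64 CPM. Of 10 Igf genes 3 were higher. Igf1 was at 265 and 210.0 CPM in members and 20.7 and 21.3 CPM in Robo2-rule cells, and its binding protein gene Igfbp5 was at 1397 and 1161 against 324 and 293 CPM. The Pdgf ligands Pdgfa, Pdgfc and Pdgfd were all past 2-fold, Pdgfc at 72.1 and 66.5 against 19.1 and 21.8 CPM. The Pdgf receptor gene Pdgfra was within 2-fold, at 132 and 99.1 CPM in members and 184 and 173 CPM in Robo2-rule cells.

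Of 9 steroid and retinoid receptors, 2 were higher in members and none was lower. Rarb, a retinoic acid receptor, was at 20.1 and 16.2 CPM in members and 3.30 and 3.15 CPM in Robo2-rule cells. The oestrogen receptor Esr1 was at 231 and 182 against 238 and 209 CPM. The progesterone receptor Pgr was low in both, at 20.8 and 20.1 against 32.7 and 29.7 CPM. Of the enkephalin and peptide processing genes outside the rule, 1 of 6 was past 2-fold. That gene was Pam, which amidates peptides, at 143 and 118 against 41.3 and 41.8 CPM; it overlaps B230216N24Rik on the same strand, so its count is uncertain.

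Guidance, adhesion and chemokine genes were also arranged between the 2 kinds. Outside the rule, 9 of 30 adhesion and guidance genes were higher and 3 lower in members. Slit3, a ligand of Robo receptors, was at 87.3 and 69.9 CPM in members and 3.02 and 4.50 CPM in Robo2-rule cells. The netrin receptor Unc5c was at 40.2 and 31.0 against 1.37 and 1.13 CPM. The receptor Robo1 was lower in members, at 16.6 and 18.6 against 119.5 and 111 CPM. Chemokine and cytokine genes were higher in 8 of 12 and lower in none, with a median log2 ratio of 1.72. Cxcl12 was at 204 and 188 against 29.5 and 32.7 CPM, and Il33, an alarm cytokine, was at 11.6 and 10.6 against 0.228 and 0.225 CPM. Cxcl13 was at 19.6 and 14.5 CPM in members and 0.171 and 0.169 CPM in Robo2-rule cells, where it had 3 UMIs in each library.

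Of the 12 genes with the largest ratios 11 are described here. Those not yet given are Stmn2, a stathmin of growing nerve cells, at 31.9 and 28.8 against 0.968 and 0.844 CPM, and the kinase gene Dclk1, at 101 and 97.3 against 6.09 and 5.74 CPM. The other genes with the lowest ratios included Map2, a microtubule protein of neurons, at 4.50 and 2.83 CPM in members and 48.3 and 44.2 CPM in Robo2-rule cells. Serglycin (Srgn), the core protein of granule proteoglycans, was at 15.4 and 24.0 against 198 and 205 CPM. Stra6, the receptor of retinol-binding protein, was at 6.80 and 6.27 against 55.4 and 48.8 CPM. Pla2g7, Csmd1, Pkib, Gap43, Rnf144b and Serpinb1a completed these 12, with log2 ratios between -3.78 and -2.58.

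**Figure D1:**
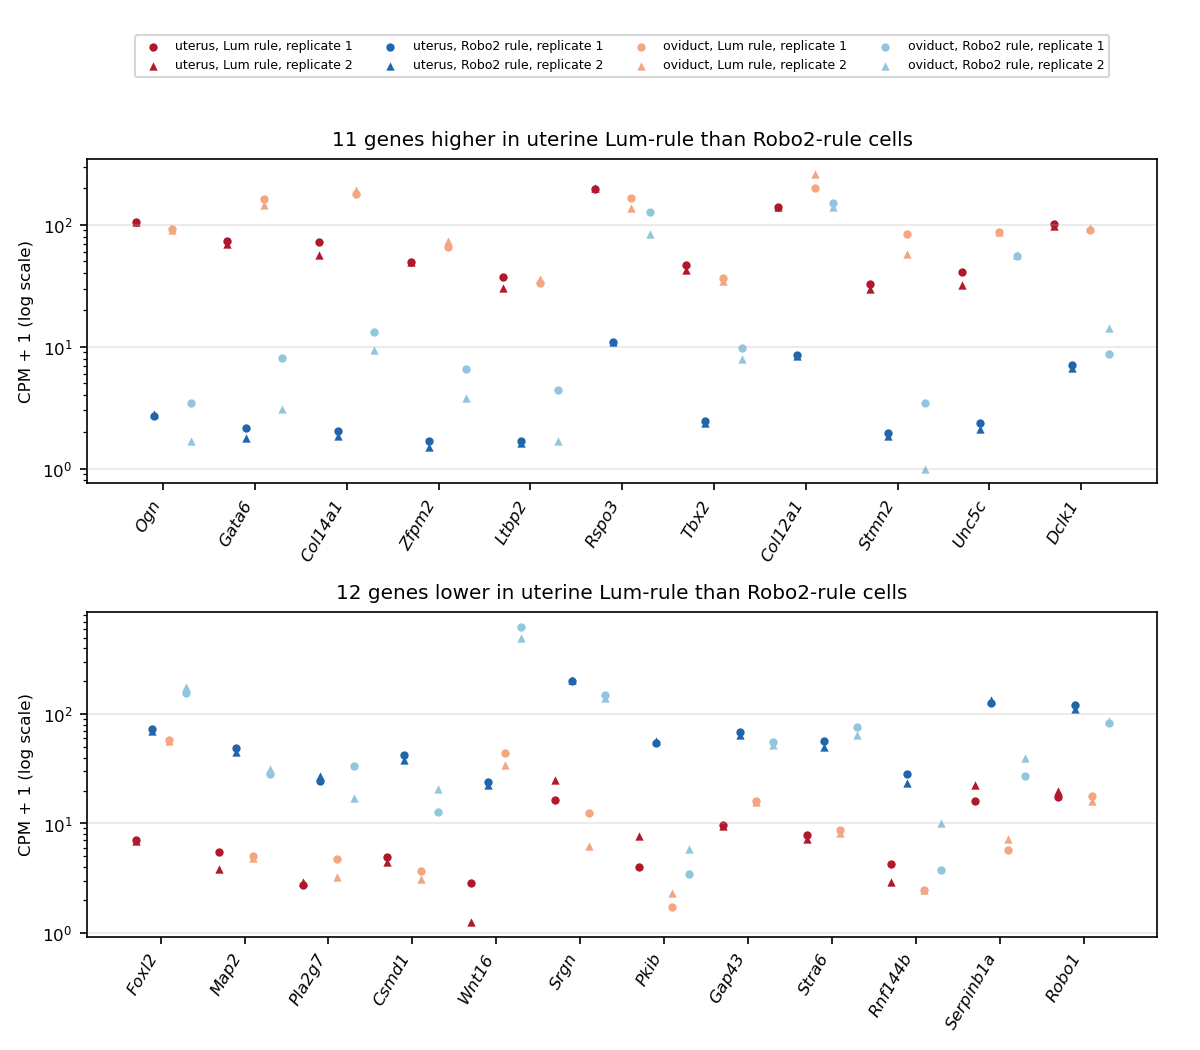
Levels (CPM + 1, log axis) of 11 of the 12 genes most strongly higher (top) and the 12 most strongly lower (bottom) in uterine Lum-rule cells, each point a library sum; colour gives organ and rule, shape the replicate. In the top panel both uterine Lum-rule points lie above both uterine Robo2-rule points for every gene, as chosen, with Ogn at 105 and 105 CPM against 1.71 and 1.80 CPM.

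Smooth muscle contractile genes were part of the difference. Of 17 compared genes outside the rule, 9 were past 2-fold higher in members and none lower, with a median log2 ratio of 1.13. Tagln, transgelin, was at 1817 and 1771 CPM in members, 321 and 315 CPM in Robo2-rule cells and 2282 and 2102 CPM in uterine smooth muscle. Acta2, smooth muscle actin, was at 1918 and 2195 CPM in members, 799.6 and 1008 CPM in Robo2-rule cells and 4509.6 and 4634 CPM in smooth muscle. Myh11, the smooth muscle myosin, was at 48.7 and 64.2 against 22.8 and 27.3 CPM, and at 244 and 185 CPM in smooth muscle. Members thus stood somewhat below muscle in Tagln and well below it in Acta2 and Myh11. Tagln and Myh11 are among the markers that chose the smooth muscle cells, so these levels follow in part from that choice. Cells with at least 4 Lum markers were kept out of the smooth muscle cells. When members and Robo2-rule cells with at least 4 muscle markers were left out, 583 genes were past 2-fold higher and 169 lower, in place of 508 and 148. Immediate early and stress genes, which are known to respond to tissue dissociation, were past 2-fold higher in 6 of 18 and lower in none, and Atf3 stood at 50.5 and 92.7 against 10.7 and 14.8 CPM. The part of either gene group in the other differences was not tested. None of 27 cell cycle genes was past 2-fold in either direction.

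The oviduct libraries played no part in choosing the rule, and cells of both rules were tested against each other there. The oviduct cells were still sorted by the same markers, and the part of that sorting in the differences was not tested. The uterine sums entered the model to help estimate the spread. In the oviduct the Lum rule found 703 and 473 cells and the Robo2 rule 173 and 92, with median UMIs per cell between 14379 and 15729. With edgeR's quasi-likelihood test on library sums, 2704 of 13774 genes (19.6%) differed at a Benjamini-Hochberg adjusted p under 0.05, 1482 (10.8%) higher and 1222 (8.87%) lower in Lum-rule cells. These totals include rule genes, which sorted the cells. Outside the rule 1475 rose and 1215 fell. Of the 501 genes past 2-fold higher in uterine members, rule genes aside, 365 (72.9%) rose in the oviduct Lum-rule cells and 20 (3.99%) fell. These 365 were 24.7% of the 1475 genes outside the rule that rose in the oviduct. Of the 141 lower in uterine members 115 (81.6%) fell and 2 (1.42%), Pcdh17 and March11, rose; the 115 were 9.47% of 1215 that fell. Without the cells of at least 4 muscle markers 2712 genes differed, and without oviduct replicate 1 there were 1353.

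The 11 genes described above, of the 12 that lead the uterine list, also rose in the oviduct Lum-rule cells, by amounts that for some genes differed from those in the uterus. Ogn was at 90.7 and 89.5 CPM in oviduct Lum-rule cells and 2.48 and 0.699 CPM in Robo2-rule cells (log2 fold change 5.55 ± 0.21 SE, adjusted p = 2.42e-14). Each SE in this report was computed back from the test's F value and is not an error taken from the fit. Gata6 was at 163 and 145 against 7.12 and 2.10 CPM (log2 fold change 4.83 ± 0.17 SE, adjusted p = 3.00e-15). For both genes the 2 kinds of cells were far apart in both oviduct libraries, and in the uterus libraries as their choice required. Zfpm2 was at 65.2 and 72.8 against 5.57 and 2.79 CPM (log2 fold change 3.85 ± 0.21 SE, adjusted p = 5.13e-12), and Stmn2 at 83.2 and 57.0 against 2.48 and 0 CPM (log2 fold change 5.46 ± 0.27 SE, adjusted p = 1.04e-12). The oviduct Robo2-rule sums held 3228760 and 1431598 UMIs. The levels of Ogn and Stmn2 in them rest on very few UMIs, so the sizes of these changes are uncertain.

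Other leading genes differed far less in the oviduct. Rspo3 was at 166 and 136 CPM in oviduct Lum-rule cells but also at 125 and 83.1 CPM in Robo2-rule cells (log2 fold change 0.53 ± 0.08 SE, adjusted p = 5.13e-05). Col12a1 was at 199.6 and 262 against 151 and 139.7 CPM (log2 fold change 0.63 ± 0.09 SE, adjusted p = 1.77e-05) and Unc5c at 86.7 and 86.5 against 54.2 and 55.2 CPM (log2 fold change 0.68 ± 0.10 SE, adjusted p = 2.29e-05). In each of these 3 genes it was the oviduct Robo2-rule cells that held a high level. Dcn was likewise at 1523 and 1171 CPM in those cells, against 2179 and 2101 CPM in Lum-rule cells (log2 fold change 0.69 ± 0.06 SE, adjusted p = 4.07e-09). The difference between the organs in these ratios was not tested.

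All 12 genes that were lowest in uterine members also fell in oviduct Lum-rule cells. Wnt16 was at 43.3 and 32.9 CPM in Lum-rule and 627 and 498 CPM in Robo2-rule cells (log2 fold change -3.87 ± 0.09 SE, adjusted p = 1.93e-17), and Srgn at 11.3 and 5.27 against 148 and 139.7 CPM (log2 fold change -4.01 ± 0.16 SE, adjusted p = 4.35e-14). The smallest of these falls beside its error was that of Pkib, at 0.734 and 1.32 against 2.48 and 4.89 CPM (log2 fold change -1.79 ± 0.62 SE, adjusted p = 0.0449). The oviduct Robo2-rule cells thus carried much more Wnt16 than the uterine ones did, and they also held Notum, a secreted Wnt deacylase, at 169 and 145 CPM against 9.71 and 4.21 CPM in Lum-rule cells (log2 fold change -4.40 ± 0.14 SE, adjusted p = 1.46e-15). The Robo2-rule cells of the 2 organs share a rule but not these levels.

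**Figure D2:**
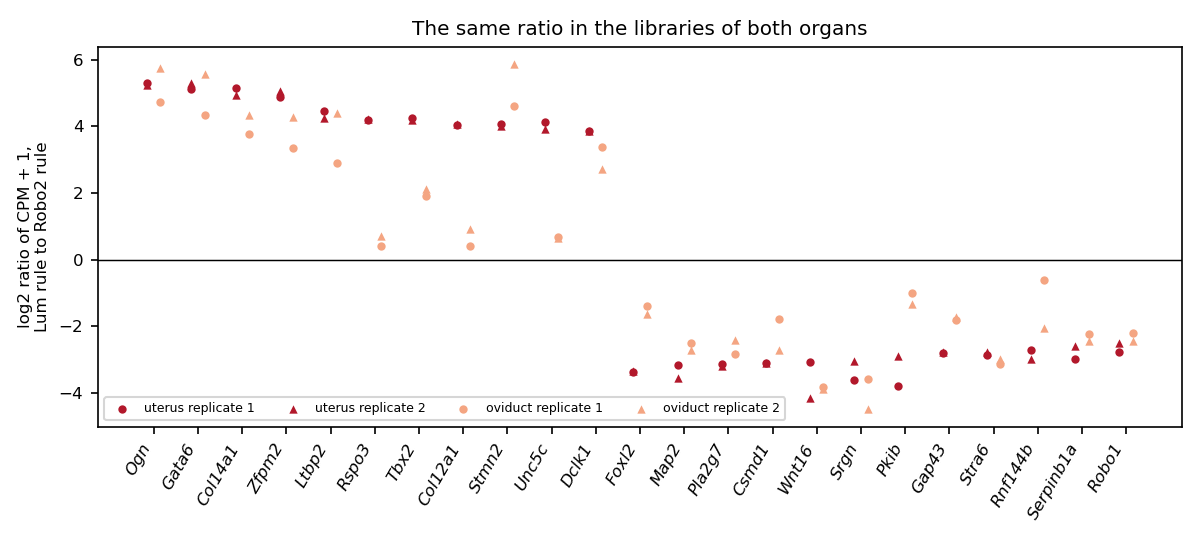
Log2 ratio of CPM + 1 between Lum-rule and Robo2-rule cells for the same genes, dark points the 2 uterus libraries that chose the rule and light points the 2 oviduct libraries; 0 marks equal levels. All oviduct points lie on the same side of 0 as the uterine ones, with Rspo3, Col12a1 and Unc5c closest to 0 among the first 11.

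Beyond those genes, others are named by the size of their change in the oviduct. Cxcl13, a chemokine of lymphoid organisers, rose most, from 1.55 and 0.699 CPM to 82.0 and 65.3 CPM (log2 fold change 5.90 ± 0.25 SE, adjusted p = 1.19e-13). Its lower levels are of sums of 3228760 and 1431598 UMIs and rest on very few UMIs. The size of its change and its rank are uncertain for that reason. Nefm, a neurofilament subunit, was at 307 and 255 CPM in Lum-rule and 12.1 and 4.19 CPM in Robo2-rule cells (log2 fold change 4.94 ± 0.13 SE, adjusted p = 1.27e-16), and C1qtnf3 at 43.3 and 48.2 against 1.24 and 2.79 CPM (log2 fold change 4.70 ± 0.28 SE, adjusted p = 2.24e-11). The largest falls outside the uterine 12 were those of Clic6, Notum, Wfdc1, Col7a1 and Bmp7. Col7a1, the anchoring fibril collagen, was at 10.4 and 7.11 CPM in Lum-rule and 192 and 166 CPM in Robo2-rule cells (log2 fold change -4.31 ± 0.10 SE, adjusted p = 1.93e-17); it overlaps Mir711 on the same strand.

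By gene group, all 17 tested contractile genes outside the rule rose in oviduct Lum-rule cells, with a median log2 fold change of 0.81 beside 0.01 over all genes tested. Tagln was at 1136 and 1131 CPM in Lum-rule and 289 and 242 CPM in Robo2-rule cells (log2 fold change 2.10 ± 0.06 SE, adjusted p = 9.10e-17). Of 15 chemokine and cytokine genes 11 rose and 1, Kitl, fell. Of 21 elastic fibre genes 15 rose and 2 fell, and Mfap5 was at 195 and 233 against 33.8 and 25.1 CPM (log2 fold change 2.77 ± 0.11 SE, adjusted p = 6.59e-14). Of 8 leucine-rich proteoglycans 3 rose and none fell. Collagens went more often down than up, 14 against 9 of 28, with a median of -0.39. Col18a1 was at 26.9 and 18.3 against 336 and 244 CPM (log2 fold change -3.66 ± 0.08 SE, adjusted p = 4.81e-18). Of 27 cell cycle genes 12 fell and 2 rose. Immediate early and stress genes, of which none was lower in uterine members, went both ways, with 4 of 18 up and 6 down. Of 42 Wnt pathway genes 8 rose and 18 fell. The muscle markers were detected together, at least 4 of 7, in 30.3% and 31.3% of oviduct Lum-rule cells, and their summed level was 1623 and 1643 CPM there against 514 and 485 CPM in Robo2-rule cells.

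Cells meeting the Lum rule were then compared between the organs, coded as uterus minus oviduct. The edgeR test called 2120 of 13310 genes (15.9%), 959 (7.21%) higher in the uterus and 1161 (8.72%) higher in the oviduct. Without cells of at least 4 muscle markers the count was 1463. Members and oviduct cells differ in share of muscle marker cells, 40.2% in both uterus libraries against 30.3% and 31.3%, and its part in the called genes was not tested.

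Hox genes, which set position along the Müllerian duct, divided the organs. Of 30 tested Hox genes 10 were higher in the uterus and 16 in the oviduct. Hoxa11 was at 109 and 104 CPM in uterine members and 9.62 and 10.0 CPM in oviduct Lum-rule cells (log2 fold change 3.48 ± 0.12 SE, adjusted p = 8.18e-11). Hoxa10 was at 274 and 267 against 56.6 and 49.4 CPM (log2 fold change 2.39 ± 0.11 SE, adjusted p = 1.30e-09), and Hoxd11, which overlaps Gm28309 on the same strand, at 191 and 173 against 26.8 and 38.4 CPM (log2 fold change 2.53 ± 0.14 SE, adjusted p = 8.68e-09). These 3 are posterior members of their clusters. Hoxc8 was at 8.67 and 6.62 CPM in the uterus against 189 and 186 CPM in the oviduct (log2 fold change -4.59 ± 0.13 SE, adjusted p = 1.76e-11). Hoxa7 was at 4.28 and 3.88 against 52.0 and 49.2 CPM (log2 fold change -3.59 ± 0.14 SE, adjusted p = 4.74e-10) and Hoxc6 at 14.2 and 13 against 81.1 and 79.8 CPM (log2 fold change -2.53 ± 0.11 SE, adjusted p = 1.30e-09). No library of one organ overlapped those of the other for any of the 6 genes. Naming by the organ test required such a gap, so it is no separate result. Within the uterus Hoxa11 and Hoxa10 were somewhat lower in members than in Robo2-rule cells, Hoxa11 at 109 and 104 against 167 and 160.4 CPM, both within 2-fold.

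Other genes higher in the uterine members included Pcp4, a small calmodulin regulator, at 90.1 and 102 CPM against 10.4 and 13.3 CPM in the oviduct (log2 fold change 3.08 ± 0.14 SE, adjusted p = 1.31e-09); it overlaps Igsf5 on the same strand. S1pr3, a receptor of sphingosine 1-phosphate, was at 79.9 and 74.4 against 12.6 and 17.6 CPM (log2 fold change 2.41 ± 0.14 SE, adjusted p = 1.40e-08). Itga1, the integrin subunit that binds collagen, was at 144 and 134 against 25.3 and 36.9 CPM (log2 fold change 2.22 ± 0.14 SE, adjusted p = 3.44e-08) and overlaps Gm49395. Cpxm2 and A2m completed the 8, A2m, a broad protease inhibitor, at 57.3 and 53.2 against 11.7 and 11.1 CPM (log2 fold change 2.31 ± 0.12 SE, adjusted p = 4.82e-09). All these were several times higher in each uterus library than in either oviduct library, and their naming required a gap between the organs. Pcp4 and Itga1 were also high in uterine smooth muscle, at 126 and 124 and 201 and 173 CPM.

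Among the genes higher in the oviduct were Nefm and Nefl, which encode neurofilament subunits. Nefm was at 9.65 and 7.33 CPM in uterine members against 307 and 255 CPM in oviduct Lum-rule cells (log2 fold change -5.02 ± 0.15 SE, adjusted p = 1.76e-11), and Nefl at 2.30 and 3.80 against 113 and 90.1 CPM (log2 fold change -4.98 ± 0.19 SE, adjusted p = 3.23e-10). Enpp2, autotaxin, which makes lysophosphatidic acid, was at 7.90 and 9.80 against 127 and 86.9 CPM (log2 fold change -3.55 ± 0.18 SE, adjusted p = 4.31e-09). Pi15 was at 11.3 and 11 against 126 and 144 CPM (log2 fold change -3.55 ± 0.12 SE, adjusted p = 8.18e-11), Foxl2 at 6.03 and 5.92 against 57.3 and 55.8 CPM (log2 fold change -3.20 ± 0.13 SE, adjusted p = 5.94e-10) and Crispld1 at 8.12 and 8.65 against 85.1 and 71.8 CPM (log2 fold change -3.18 ± 0.14 SE, adjusted p = 8.23e-10). Both neurofilament genes were at few CPM in each uterus library and many times higher in each oviduct library.

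**Figure D3:**
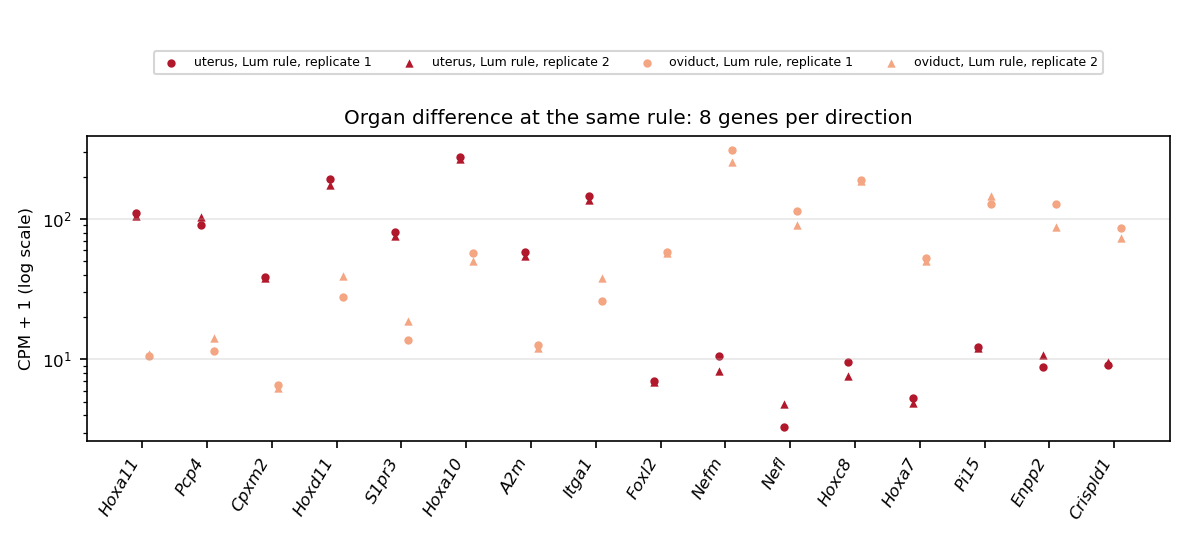
Levels (CPM + 1, log axis) of the 8 genes called most strongly in each direction between uterine and oviduct cells of the Lum rule, dark points uterus and light points oviduct, shape giving the replicate. The organs do not overlap for any of the 16 genes, as the choice of genes required. Hoxa11 stands at 109 and 104 CPM in the uterus and 9.62 and 10.0 CPM in the oviduct.

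Several genes of the uterine description also differed between the organs. Gata6 and Col14a1 were higher in the oviduct, Col14a1 at 70.9 and 55.9 CPM in uterine members against 177 and 190.1 CPM (log2 fold change -1.50 ± 0.11 SE, adjusted p = 1.68e-07). Ogn did not pass the test (log2 fold change 0.26 ± 0.09 SE, adjusted p = 0.0853). Collagens were mostly higher in the oviduct, 17 of 27 against 6 in the uterus, and elastic fibre genes likewise, 11 of 21 against 1. In the uterus, 8 of 17 contractile genes were higher and 1, Myh11, was lower (log2 fold change -1.02 ± 0.16 SE, adjusted p = 4.14e-04). Among Wnt pathway genes 12 of 41 were higher in the uterus and 11 in the oviduct. Fzd1, a Wnt receptor, was at 165 and 136 CPM in the uterus against 42.2 and 47.0 CPM (log2 fold change 1.79 ± 0.11 SE, adjusted p = 2.67e-08), and Wnt4 was at 214 and 185 against 124 and 116 CPM (log2 fold change 0.77 ± 0.10 SE, adjusted p = 5.17e-05). Meis2 was higher in the uterus (log2 fold change 1.24 ± 0.10 SE, adjusted p = 2.86e-07). Igf1 was lower there, at 265 and 210.0 against 558 and 633 CPM (log2 fold change -1.29 ± 0.11 SE, adjusted p = 1.23e-06). Esr1 did not pass (log2 fold change -0.05 ± 0.11 SE, adjusted p = 0.841), and Pgr was higher in the uterus (log2 fold change 1.13 ± 0.15 SE, adjusted p = 8.13e-05).

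Of all kept cells, the Lum rule took 15.5% and 15.8% in the uterus and 10.2% and 8.10% in the oviduct. The mean was 15.6% ± 0.208 (SD, n = 2) in the uterus and 9.13% ± 1.46 (SD, n = 2) in the oviduct, a difference of 6.52 percentage points. The share counts the genes of the rule, and no permutation of 2 against 2 libraries can reach 0.05, so no test is given. Both uterus libraries lay above both oviduct libraries, but the rule was made on the uterus and the filters removed more uterine barcodes. Without cells of at least 4 muscle markers the difference was 3.03 percentage points.

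The members were then split by how many of the 7 muscle markers had a UMI: 64 and 77 cells had 0 to 1, 312 and 349 had 2 to 3 and 253 and 286 had 4 to 7. Acta2, which is not among those 7, was at 485 and 523 CPM in the first class, 1138 and 1181 CPM in the second and 2874 and 3423 CPM in the last. Of the rule genes, which were counted to choose these cells, Tcf21 was at 472 and 469, 517 and 544 and 497 and 459.6 CPM. Lum went from 609.7 and 526 CPM to 448 and 459.6 and 298 and 266 CPM, and Col14a1 from 142 and 94.2 to 36.9 and 36.2 CPM. The other rule genes did not move as one: Penk was at 233 and 230.1 CPM in the first and 149 and 127 CPM in the last class, Alcam at 434 and 335 and 499.5 and 453 CPM, and Pdlim3 at 97.2 and 77.8 and 111 and 134 CPM. Pdgfrl was at 103 and 99.7 and 79.5 and 87.9 CPM and Mme at 140.5 and 137 and 129 and 114 CPM in the same classes. Myocd, the coactivator that drives contractile genes, was at 29.3 and 7.67 CPM in the first and 49.5 and 51.6 CPM in the last class. Foxl2 stayed low in every class, at most 8.53 and 8.53 CPM. Median UMIs per cell were 9707.5 and 11595 in the first class and 16047 and 17656 in the last, so that deeper cells fell more often in the last class.

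Of the 8 genes with the lowest ratios in the class of 4 to 7 muscle markers, 3 are given with their levels. Agtr2, the type 2 angiotensin receptor, was at 71.0 and 62.5 CPM in members of 0 to 1 muscle markers and 5.07 and 2.41 CPM in those of 4 to 7. Dpt, dermatopontin, a matrix protein of fibroblasts, was at 114 and 61.4 against 21.9 and 8.35 CPM, and the eotaxin gene Ccl11 at 35.5 and 48.2 against 5.53 and 7.79 CPM. Cxcl13, Ngfr, Nr2f1, Nrp2 and Ebf1 completed the 8. Cxcl14 ran the other way, at 63.3 and 36.2 against 268 and 240.3 CPM.

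**Figure D4:**
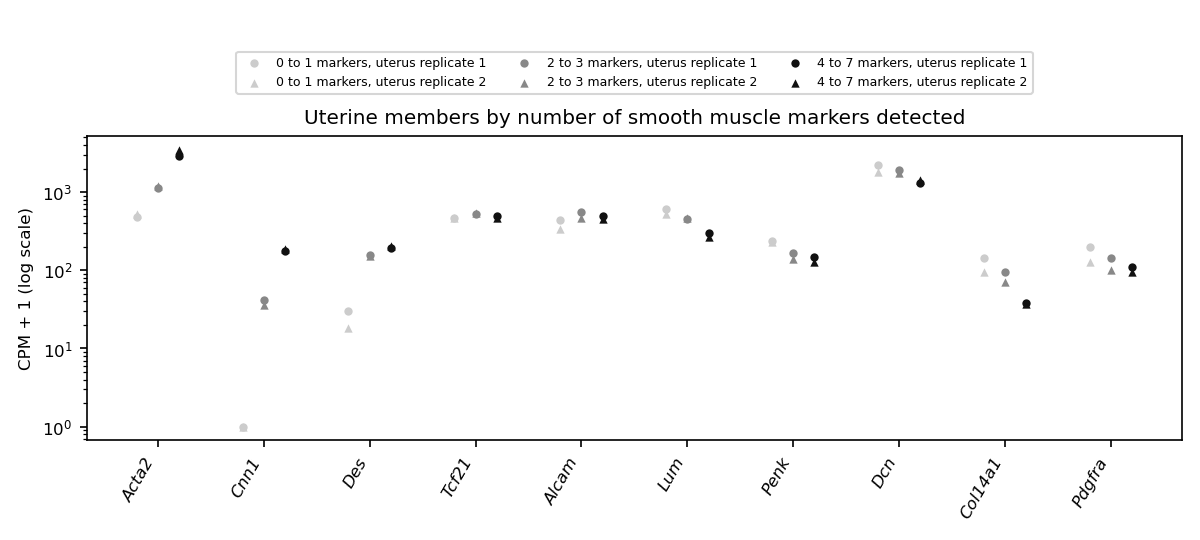
Levels (CPM + 1, log axis) of 10 genes in the uterine members split by the number of smooth muscle markers detected, light to dark for 0 to 1, 2 to 3 and 4 to 7 markers, shape giving the replicate. Acta2, Cnn1 and Des climb with the class, of which Cnn1 and Des were used for the split, while Tcf21 stays between 460 and 544 CPM and Lum falls from 610 and 526 to 298 and 266 CPM.

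Clustering of the members by themselves gave 6 subclusters, each with cells of both libraries; their genes come from the same cells and carry no test. Subcluster 3, with 144 and 117 cells, held the highest Tcf21 and Alcam, Alcam at 914 and 827 CPM. The 5 genes that led it, by the lower of the 2 libraries' ratios to the other members, were Kdr, a Vegf receptor, at 104 and 75.4 CPM, Tmem150c, Zfpm2 at 121 and 119.8 CPM, Serpine2, a protease inhibitor, at 422 and 489 CPM, and Stmn2. Tbx2 was at 108 and 87.8 CPM in it, the tenth by that ratio.

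Subcluster 5, with 115 and 121 cells, held the most Lum, Penk and Dcn. Lum was at 1019 and 694 CPM and Penk at 364 and 251 CPM. It also led in Dpt (284 and 113 CPM), Agtr2 (99.4 and 70.9 CPM), Nr2f1 (69.8 and 63.5 CPM) and Nefm (52.9 and 38.2 CPM). Cxcl14 was at 9.16 and 7.40 CPM there. Tcf21 was at 381 and 369 CPM, the lowest of the 5 larger subclusters. Of its cells, both libraries together, 16.9% had at least 4 muscle markers, the lowest share of the 5 larger subclusters. The libraries differed in muscle genes there, with Myh11 at 34.5 and 135 CPM, Actg2 at 14.8 and 134 CPM and Acta2 at 1206 and 2244 CPM.

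Subcluster 2, with 147 and 138 cells, had the highest such share, 64.2%. Acta2 was at 3149.9 and 3858 CPM in it, Myocd at 72.7 and 78.2 CPM and Cxcl14 at 421 and 381 CPM, while Lum was at 191 and 190.5 CPM and Gata6 at 11 and 7.11 CPM. Subcluster 1, with 113 and 180 cells, led in Ccl11, at 45.8 and 36.0 CPM, and Klf4 was at 149 and 111 CPM in it. Subcluster 4, with 108 and 141 cells, was made of dividing cells: Mki67, a marker of proliferation, was at 799 and 590.4 CPM, and in subclusters 1, 2, 3 and 5 it did not exceed 19.0 CPM. Ogn was at 13.2 and 23.0 CPM in subcluster 4 and at 53.1 CPM or more in each library of those 4.

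**Figure D5:**
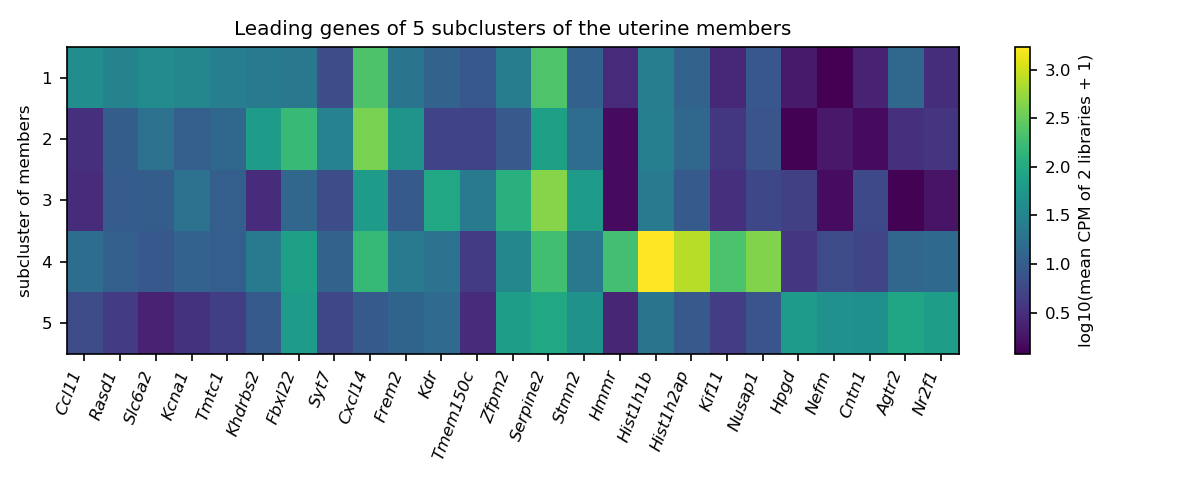
Mean level (log10 of the mean CPM of both uterus libraries + 1, colour) of the leading genes of the 5 larger subclusters of the members, 1 row per subcluster and 1 column per gene. Subcluster 4 stands out in cell cycle genes and subcluster 5 in Hpgd, Nefm and Agtr2; Agtr2 is at 99.4 and 70.9 CPM there.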

How the data were processed

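The authors deposited UMI counts per gene and barcode for 4 libraries of the Chromium Single Cell 3′ v3.1 kind, per the labels, in which 2 libraries are oviduct and 2 uterus. Per the file headers Cell Ranger 6.0.1 wrote the filtered matrices and release 4 the raw ones; 0 counts of called barcodes differed between both. The submitters' processing notes name mm10 and Seurat 4.2.3; how genes were annotated and introns counted is not given in the sources used here. The files list 31053 genes. The libraries held 61117726 to 114419939 UMIs in called barcodes.

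Cells needed 500 or more genes and no more than 15% mitochondrial UMIs, with no doublet removal beyond the rule itself; removal of the highest Scrublet scores (0.8% per 1000 barcodes) was an alternative. The marker rule was applied to the counts, and counts were summed per library and kind of cell, so that libraries, not cells, are the replicates. CPM use the sum's own total, and the ratios of uterine sums are on the log2(CPM + 1) scale. Sums were tested with edgeR 4.0.16 in R 4.3.3 (TMM, filterByExpr, glmQLFit, glmQLFTest, 2-sided, Benjamini-Hochberg over all genes tested). The organ test had organ as its term, and the oviduct test of the 2 kinds used 1 model over 8 sums with a term per library. The test was checked on simulated data. Each SE is the absolute log2 fold change divided by the square root of the F value. It is not an error taken from the fit, and it can be too small where a kind of cell has few UMIs of a gene. p-values of the organ test measure the spread between 2 pools per organ. Those of the oviduct test measure how the ratio of the 2 kinds varied between libraries, with the uterine sums helping to estimate that spread.

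The members, gene lists and tests were chosen with earlier results of these data known. Named are the 12 genes per direction with the largest smaller-of-2-libraries ratio in the uterus (at least 20 CPM in the higher kind), the 8 per direction of the organ test and the 6 per direction of the oviduct test with the largest called changes (mean of at least 20 CPM, no overlap between libraries), up to 2 per direction and comparison from each list, and a fixed set of well-known genes. Rule, ribosomal, mitochondrial, haemoglobin and predicted genes were left out of that choice; genes named for a subcluster, for the classes within members or as single exceptions to a count were chosen after their values were seen. Some genes that these rules name are not reported here and enter only the totals. Subclusters are Leiden clusters (scanpy 1.11.5, leidenalg 0.10.2) of members at resolution 0.5 on 2000 variable genes, 20 principal components and 15 neighbours. Gene positions and overlaps are from GENCODE (GRCm38) and promoters from RefSeq (GRCm38.p6). Free RNA was taken from uncalled droplets of at most 100 UMIs.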

Additional observations from a re-analysis of the deposited data

Results flagged for a closer look

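Among the named and listed genes, 7 that were higher in uterine Lum-rule than Robo2-rule cells in both uterus libraries were lower in both oviduct libraries; the difference between the organs was not tested. The mean log2 ratio of Lum-rule to Robo2-rule cells in the oviduct libraries was -1.02 for Col15a1, a basement membrane collagen. Its level in Lum-rule cells alone, which is not that ratio, was 27.9 and 28.5 CPM in the uterus and 83.4 and 90.7 CPM in the oviduct. The mean ratio was -0.72 for Nr2f1, a COUP transcription factor gene. It was -0.61 for Klf4, also a transcription factor gene. The mean was -0.40 for Fos and -0.17 for Socs3, both early response genes. It was -0.10 for the Wnt receptor gene Fzd1 and -0.092 for the ligand gene Wnt11, which are close to 0. In the oviduct test with edgeR, Col15a1, Nr2f1, Klf4 and Fos fell in Lum-rule cells, while Socs3 (adjusted p = 0.166), Fzd1 (adjusted p = 0.736) and Wnt11 (adjusted p = 0.866) did not pass.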

How the results depend on the processing

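The share difference of 6.52 percentage points became 8.17 under the stricter cell filters and 3.03 without cells of at least 4 muscle markers, an alternative chosen after seeing the data. The organ test's 2120 calls became 1264 with DESeq2, 1385 at 5 or more Lum markers, 574 after thinning to 5000 UMIs, where fewer cells and genes enter, and 6356 over all stroma, where more cells enter. The oviduct test's 2704 calls became 1363 with DESeq2 and 633 after thinning. The rules were applied anew to the thinned counts, which left 26 and 21 oviduct Robo2-rule cells. Leaving out 1 library gave 1609 to 1858 calls for the organ test and 1353 to 2683 for the oviduct test, lowest without oviduct replicate 1, and a share difference of 5.49 to 7.55. A lone library is assumed to vary like the others. Replicate 1 of both organs deviated together with r = 0.076 over 6081 genes, and the labels tie no number to a pool, so the numbers were not taken as pairs; the replicate block gave 2407 organ calls, and the oviduct test gave 2024 with no replicate block. In the organ test Igfbp3 reversed to -0.082 at 5 or more Lum markers, -0.55 thinned and -0.088 without muscle marker cells, and Esr1 to 0.23, 0.29 and 0.090 there and, to 0.055 without oviduct replicate 2 and 0.088 without uterus replicate 2 (range with 1 library left out -0.19 to 0.088). Thinning turned Col6a5 to -0.11, Ccne2 to 0.0038 and Mki67 to 0.25, and all stroma turned Acta2 to -0.30 and Wnt5a to -0.20. In the oviduct test thinning, with only those 26 and 21 Robo2-rule cells, turned Dpp3 to -0.66, Ccne2 to 1.61 and Mki67 to 0.87. The cause of these changes was not tested. Of single gene values, 1122 of the organ test and 977 of the oviduct test kept direction and side of the threshold; 79 and 58 no longer passed and 3 and 5 newly passed. The uterine ratios moved by more than the spread of the 2 libraries in 175 alternative values and by less in 273. The oviduct test rests on 173 and 92 Robo2-rule cells, which limits it for genes of low level.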

Other observations

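Between both kinds of stroma lay 154 and 192 uterine cells with at least 4 markers of each set and no UMI of Epcam, Pecam1 or Upk3b. Their median UMIs were 19987.5 and 22628, above those of members and Robo2-rule cells in both libraries.

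The smallest subcluster of members, number 6, had 2 cells in uterus replicate 1 and 15 in replicate 2, and 5.88% of its cells had at least 4 muscle markers. With 2 cells, its levels in replicate 1 for the genes named here rest on very few UMIs. Its leading genes included Pf4, which platelets and some macrophages carry, at 112 and 50.9 CPM against 0.989 and 0.627 CPM in the other members, and the epithelial keratin gene Krt19, at 56.1 and 57.3 against 1.21 and 3.40 CPM. Wfdc2, another epithelial gene, was at 281 and 395 against 25.5 and 28.3 CPM, and the endothelial genes Egfl7 and Ecscr were also among its 10 leading genes. Its median of 2539 genes per cell was the lowest of the 6 subclusters, and the part of other cell types in it was not tested. Its level of Lum was 108 CPM in replicate 2, that of Tcf21 127 CPM and that of Col14a1 0 CPM. Plac8, one of the genes counted against membership, was at 223 CPM there.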
